A study of Saccharomyces cerevisiae with 10 samples.

Results

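A set of 10 genes was described: those with which the yeast Saccharomyces cerevisiae takes up copper and those with which it binds and distributes the metal. They are the transporter genes CTR1, CTR2 and CTR3, the metal reductase genes FRE1 and FRE7, the regulator genes MAC1 and CUP2, the metallothionein genes CUP1-1 and CRS5, and the copper pump gene CCC2. They make up 10 of the 5654 named genes measured. The members were chosen by name on the basis of their known roles, with log2 values from all 5 groups of these data in view. Their values are therefore given as a description, with differences and standard errors and with no test.

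Total RNA of strain TMB3500 was measured on single-colour Affymetrix 3′ arrays, on which the 3′ ends of transcripts are read out as labelled RNA. Cells were first grown aerobically in batch on glucose at 20 g/L and were then fed continuously, with either spruce hydrolysate that had not been detoxified or the sugars glucose, mannose and xylose in about the amounts found in it. Feeding began at 0.04 L/h and reached 0.1 L/h after 16 h, when 1 L had joined the 0.7 L of the batch. The final volume was 1.7 L, and whether feeding still ran at 18 h is not established here. The 10 arrays form 5 groups with 2 biological replicates each, namely cells taken as feeding began (0 h, the start), the hydrolysate feed at 9 h and at 18 h, and the sugar feed at 9 h and at 18 h. All 5 groups hold the same strain and the same batch phase, with trace metals in the medium. The sources used here do not give the copper content of the medium, of the sugar feed or of the hydrolysate.

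Copper enters a yeast cell in its reduced form. Reductases at the cell surface, among them Fre1, reduce the metal, and the transporters Ctr1 and Ctr3 carry it across the plasma membrane. When copper is scarce, the transcription factor Mac1 activates CTR1, CTR3, FRE1 and FRE7. When copper is plentiful, Mac1 is inactive and the factor Cup2, also called Ace1, activates the metallothionein genes CUP1 and CRS5, whose small cysteine-rich proteins hold copper ions. Inside the cell, the chaperone Atx1 hands copper to the pump Ccc2, which loads it into the Golgi for the multicopper oxidase Fet3 of iron uptake.

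All levels are the deposited log2 intensities after robust multi-array averaging (RMA), so that 1 unit is a 2-fold difference. Levels of different genes are not compared, since each probe set has its own brightness. Each of the 10 genes has 1 probe set, and each exceeded background on all 10 arrays, where background is the level that 95% of the probe sets for Schizosaccharomyces pombe stay below on that array (4.67 to 4.9). The standard error (SE) of a difference comes from a single limma fit of all 10 arrays. Replicates correlated between 0.971 in the hydrolysate feed at 9 h and 0.996 in the sugar feed at 18 h. At least 2-fold differences between replicates were found for 201 and 9 genes in these groups, and for 180 genes at the start. Signs of RNA quality moved with the groups. The mean excess of 3′ over 5′ signal in 8 control genes was 0.83 ± 0.07 (SD, n = 2) at the start, 0.96 ± 0.05 and 1.23 ± 0.05 in the hydrolysate feed at 9 h and 18 h, and 0.67 ± 0.003 and 0.60 ± 0.01 in the sugar feed. The median feed difference of the shortest of 4 length classes of genes (51 to 753 bp) was 0.16 at 9 h and 0.47 at 18 h, against -0.04 and -0.35 in the longest class. CTR3, CTR2, CUP2, CUP1-1 and CRS5 lie in the shortest class. The part of RNA quality in the results was not tested. For the 10 members, a difference between feeds with the trend over gene length taken off is given where it moved a value by more than 1.5 times. This was not computed for other genes. Spike-in scaling, named beside some values, instead sets each array to its hybridization spike-ins, which are controls added in fixed amounts for the hybridization step. It does not measure the RNA content of cells, and was chosen after seeing the data.

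CTR1 encodes the main high-affinity copper transporter of the plasma membrane. Its level was lower in the hydrolysate feed than in the sugar feed, with a log2 difference of -3.13 at 9 h (SE 0.32, 8.73-fold) and -4.59 at 18 h (SE 0.32, 24.1-fold). The gene is YPR124W on chromosome XVI, 786208 to 787428, an open reading frame of 1221 bp. Its log2 level was 10.53 and 10.00 in the 2 replicates at the start of the feed. In the hydrolysate feed it was 9.48 and 8.42 at 9 h and 8.21 and 7.90 at 18 h. In the sugar feed it was 12.07 and 12.09 at 9 h and 12.64 and 12.65 at 18 h. The groups stood in the order sugar 18 h, sugar 9 h, start, hydrolysate 9 h, hydrolysate 18 h, and no neighbours in this order overlapped. On the RMA scale the 2 feeds thus lay on opposite sides of the start. The feed difference of CTR1 at 18 h was the lowest of all 5654 genes, and at 9 h it was the 4th lowest. The difference at 18 h minus that at 9 h was -1.46 (SE 0.45), and -1.99 to -0.93 when any array was left out. In bulk samples such as these, fewer cells that express a gene and less RNA of it per cell cannot be told apart.

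CTR3 encodes the second high-affinity copper transporter, which a transposon in the promoter silences in many laboratory strains. The gene is YLR411W on chromosome XII, 947253 to 947978 (726 bp). The log2 level was 13.80 and 13.88 at the start, 12.49 and 11.70 in the hydrolysate feed at 9 h, and 13.04 and 12.50 at 18 h. Sugar-fed cells read 13.90 and 13.95 at 9 h and 14.39 and 14.42 at 18 h. All 10 values lay far above background in this strain. On the RMA scale both hydrolysate groups lay below the start, and the sugar groups above it, without overlap. Its feed difference was -1.83 at 9 h and -1.64 at 18 h (SE 0.26, 3.56-fold and 3.11-fold). Unlike that of CTR1, its lowest group was the hydrolysate feed at 9 h.

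CTR2 encodes the transporter of the vacuole membrane, which releases stored copper to the cytosol. It is YHR175W on chromosome VIII, 452872 to 453441 (570 bp). On the log2 scale it read 11.11 and 10.33 at the start, 10.76 and 11.09 in the hydrolysate feed at 9 h and 10.89 and 10.62 at 18 h. The sugar feed gave 11.65 on both arrays at 9 h, and 11.46 and 11.37 at 18 h. The sugar groups lay above the other groups, which overlapped each other. The feed difference was -0.73 at 9 h and -0.66 at 18 h (SE 0.24), short of 2-fold. With the trend over gene length taken off, it was -1.07 at 18 h.

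FRE1 encodes a surface reductase that reduces both iron and copper for uptake. It is YLR214W on chromosome XII, 568567 to 570627 (2061 bp). The arrays gave log2 levels of 9.14 and 9.08 at the start, 9.34 and 8.90 in the hydrolysate feed at 9 h and 9.73 and 9.21 at 18 h. With sugar feeding the values were 10.52 and 10.53 at 9 h and 10.64 and 10.78 at 18 h. The hydrolysate groups and the start overlapped, and both sugar groups stood above them. The feed difference was -1.41 at 9 h and -1.24 at 18 h (SE 0.20, 2.66-fold and 2.36-fold). Without replicate 2 of the hydrolysate feed at 18 h, the difference at 18 h was -0.98, under 2-fold.

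FRE7 encodes a reductase of the same family whose transcription Mac1 also activates. It is YOL152W on chromosome XV, 40748 to 42610 (1863 bp). It had log2 levels of 7.39 and 7.86 at the start, 5.54 and 5.59 in the hydrolysate feed at 9 h and 5.83 and 5.55 at 18 h. On sugar it read 6.21 and 6.17 at 9 h and 7.43 and 7.33 at 18 h. The hydrolysate groups overlapped each other and were the lowest. The sugar feed at 9 h also lay below the start, while the sugar feed at 18 h overlapped it. FRE7 had a feed difference of -0.63 at 9 h (SE 0.17, 1.54-fold) and -1.69 at 18 h (3.23-fold).

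**Figure D1:**
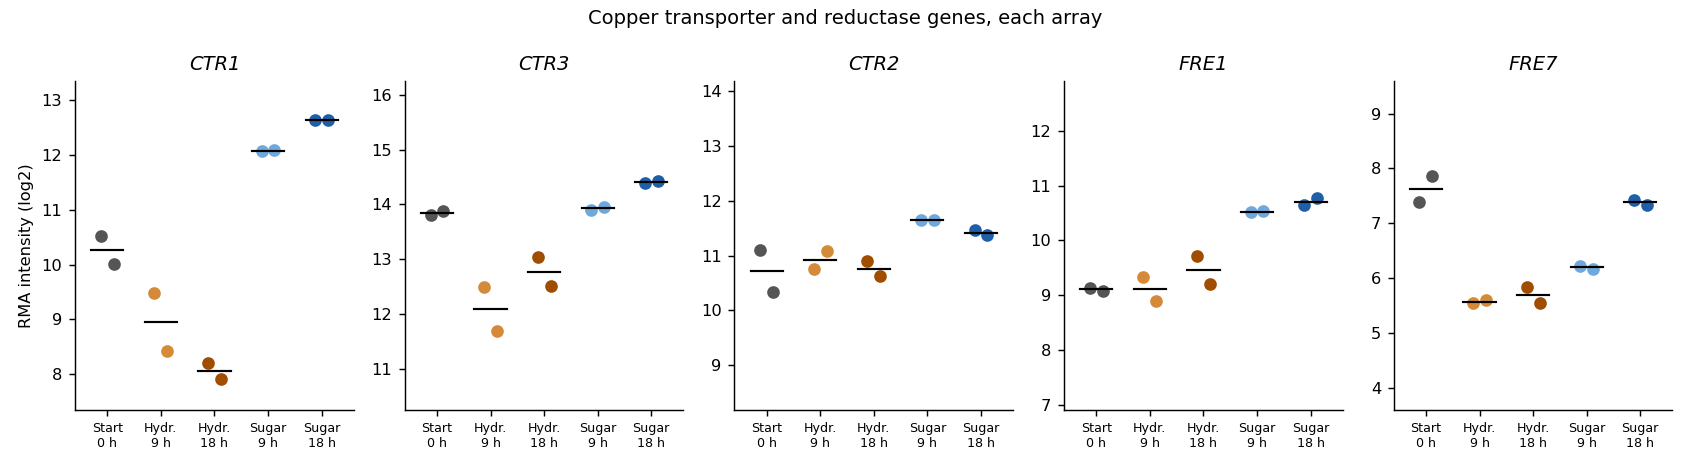
Log2 RMA intensity (vertical axes, each spanning 6 units) of CTR1, CTR3, CTR2, FRE1 and FRE7 on each array (points) with group means (black lines), for the start and for each feed at 9 h and 18 h. CTR1 reads 12.07 to 12.65 in the sugar feed and 7.90 to 9.48 in the hydrolysate feed, with the start between them.

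MAC1 encodes the regulator that activates these uptake genes when copper is low. It is YMR021C on chromosome XIII, 317165 to 318418 (1254 bp). Its log2 level was 10.28 and 9.79 at the start, 9.98 and 9.88 in the hydrolysate feed at 9 h and 10.08 and 9.85 at 18 h. The sugar arrays read 9.57 and 9.70 at 9 h and 8.95 and 8.90 at 18 h. The start and both hydrolysate groups overlapped, and the sugar groups were lower. MAC1 was therefore lowest in the group where CTR1, CTR3 and FRE1 were highest. Its feed difference was 0.29 at 9 h and 1.04 at 18 h (SE 0.18). The value at 18 h is just past 2-fold. It was 0.82 under spike-in scaling, 0.98 when normalized by quantiles again, and down to 0.92 when an array was left out.

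CUP2 encodes the regulator that activates the metallothionein genes when copper is high. It is YGL166W on chromosome VII, 191129 to 191806 (678 bp). The log2 level was 10.53 and 10.51 at the start, 9.51 and 9.32 in the hydrolysate feed at 9 h and 10.90 and 10.68 at 18 h. In the sugar feed it was 9.13 and 9.17 at 9 h and 10.23 and 10.35 at 18 h. Within each feed it was lower at 9 h than at 18 h, without overlap. The feed difference was 0.27 at 9 h and 0.50 at 18 h (SE 0.14), both short of 2-fold. At 18 h it was 0.28 under spike-in scaling and 0.19 with the trend over gene length taken off.

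CUP1-1 encodes the major copper metallothionein. Its level was higher in the hydrolysate feed by 2.06 log2 units at 9 h and by 1.58 at 18 h (SE 0.19, 4.17-fold and 2.99-fold). It is YHR053C on chromosome VIII, 212535 to 212720 (186 bp), and its probe set is shared with the copy CUP1-2, so the values belong to both. On the log2 scale it read 13.22 and 13.13 at the start, 12.76 and 12.43 in the hydrolysate feed at 9 h and 13.74 and 13.92 at 18 h. Sugar-fed cells read 10.27 and 10.80 at 9 h and 12.19 and 12.30 at 18 h. No groups overlapped, in the order hydrolysate 18 h, start, hydrolysate 9 h, sugar 18 h, sugar 9 h. Within each feed the level was higher at 18 h than at 9 h. With the trend over gene length taken off, the feed difference was 1.85 at 9 h and 1.03 at 18 h.

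CRS5 encodes the second copper metallothionein. It is YOR031W on chromosome XV, 389213 to 389422 (210 bp). The arrays gave log2 levels of 14.24 and 14.13 at the start, 11.96 and 12.57 in the hydrolysate feed at 9 h and 13.91 and 14.08 at 18 h. The sugar feed gave 11.85 and 12.16 at 9 h and 14.27 and 14.39 at 18 h. The feeds overlapped at 9 h, and both were well below the start and below 18 h. The feed difference was 0.26 at 9 h and -0.33 at 18 h (SE 0.21). At 9 h its sign turned to -0.05 without replicate 2 of the hydrolysate feed at 9 h. With the trend over gene length taken off, it was 0.05 at 9 h and -0.90 at 18 h. Its feed differences stand beside 2.06 and 1.58 for CUP1-1.

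CCC2 encodes the copper pump of the late Golgi, whose transcription the iron regulator Aft1 activates. It is YDR270W on chromosome IV, 1005675 to 1008689 (3015 bp). It had log2 levels of 9.24 and 9.59 at the start, 10.43 and 10.29 in the hydrolysate feed at 9 h and 11.03 and 11.52 at 18 h. With sugar feeding the values were 10.19 and 9.93 at 9 h and 11.24 and 11.19 at 18 h. CCC2 stood above the start in all fed groups, and the feeds overlapped at 18 h. Between feeds it differed by 0.30 at 9 h and 0.05 at 18 h (SE 0.20). At 18 h it was -0.19 without replicate 2 of the hydrolysate feed, -0.17 under spike-in scaling, and 0.42 with the trend over gene length taken off.

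**Figure D2:**
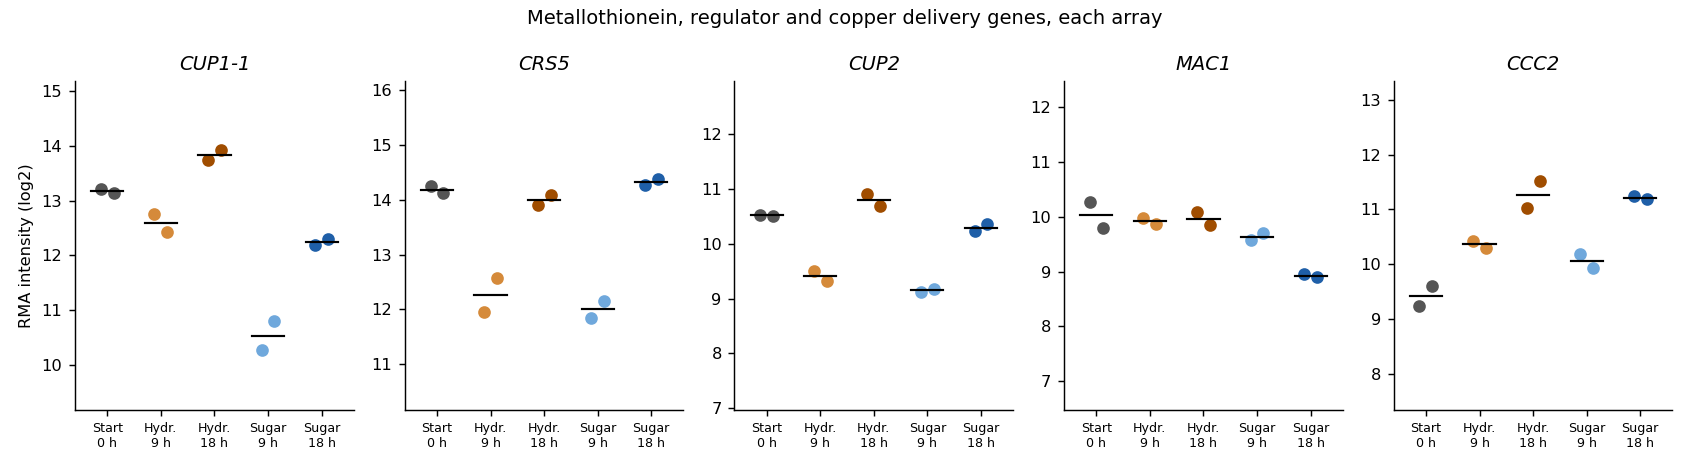
Log2 RMA intensity (vertical axes, each spanning 6 units) of CUP1-1, CRS5, CUP2, MAC1 and CCC2 on each array (points) with group means (black lines), for the start and for each feed at 9 h and 18 h. CUP1-1 is lowest in the sugar feed at 9 h (10.27 and 10.80), where CRS5 and CUP2 are also at their lowest means.

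Side by side, the transporter and reductase genes were lower in the hydrolysate feed and CUP1-1 was higher. At 9 h, 1 member (CUP1-1) was higher by at least 2-fold without overlap of the arrays of both feeds, as were 3.08% of all genes, and 3 (CTR1, CTR3 and FRE1) were lower, as were 2.37% of all genes. At 18 h, 2 members (CUP1-1 and MAC1) were higher, as were 17.6% of all genes, and 4 (CTR1, CTR3, FRE1 and FRE7) were lower, as were 14.3%. Nothing is read from these counts or from the medians and ranges below, since the values were in view when the members were chosen. The median difference of the 10 members was -0.18 at 9 h and -0.50 at 18 h, beside 0.03 and 0.01 for all genes. From 9 h to 18 h the feed difference of CTR1 changed by -1.46, that of FRE7 by -1.06 (SE 0.25) and that of MAC1 by 0.75 (SE 0.25). For the other 7 members this change lay between -0.59 and 0.24. The members differed widely in their range over the 5 group means. That of CTR1 (4.59) exceeded those of 98.9% of genes and that of CUP1-1 (3.29) those of 95.2%, while CTR2 (0.93) exceeded 23.8% and MAC1 (1.11) exceeded 34%.

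**Figure D3:**
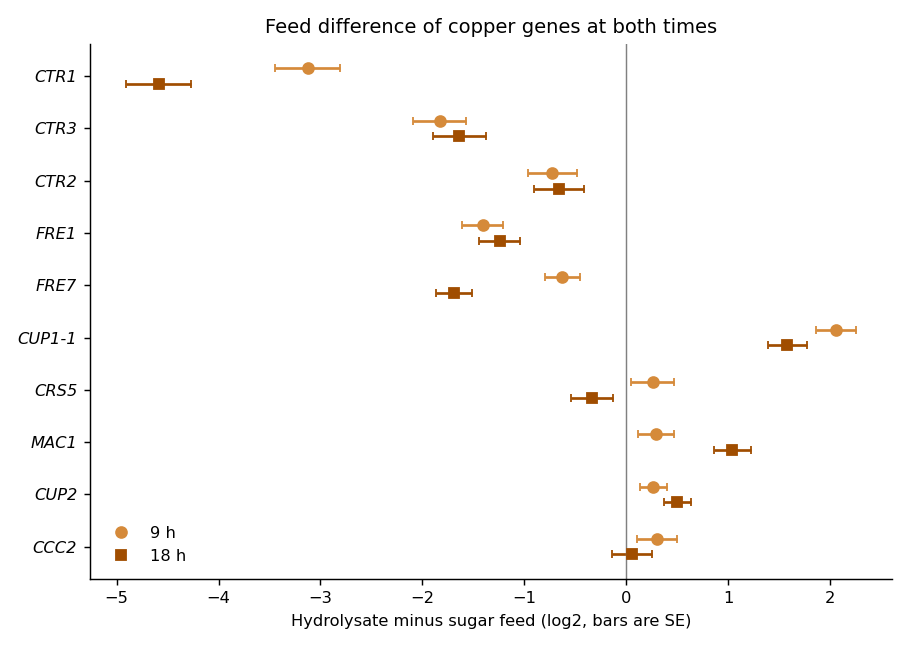
Log2 difference between the hydrolysate and the sugar feed (horizontal axis) for each of the 10 genes, at 9 h (circles) and 18 h (squares), with bars of 1 SE from the limma fit. CTR1 lies farthest left at both times (-3.13 and -4.59) and CUP1-1 farthest right (2.06 and 1.58).

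The levels at the start allow each feed to be described against the same 2 arrays, which all 4 of these comparisons share. CTR1 differed from the start by -1.32 in the hydrolysate feed at 9 h and by -2.21 at 18 h, and by 1.81 and 2.38 in the sugar feed. FRE1 differed from the start by 0.01 and 0.36 in the hydrolysate feed and by 1.42 and 1.60 in the sugar feed. CTR3 differed by -1.75 and -1.07 in the hydrolysate feed and by 0.08 and 0.57 in the sugar feed. CUP1-1 differed from the start by -0.58 and 0.65 in the hydrolysate feed and by -2.64 and -0.93 in the sugar feed. With the trend over gene length taken off, its difference was -0.02 in the hydrolysate feed at 9 h and -0.05 in the sugar feed at 18 h. On the same scale CRS5 and CUP2 were lower than the start at 9 h in both feeds, with differences of -1.92 (hydrolysate) and -2.18 (sugar) for CRS5 and of -1.10 and -1.37 for CUP2. At 18 h the differences were -0.19 and 0.14 for CRS5 and 0.28 and -0.23 for CUP2. With the trend over gene length taken off, the signs of CRS5 in the hydrolysate feed (0.13) and of CUP2 in the sugar feed (0.18) turned, CRS5 in the sugar feed was 1.02 above the start, and CTR3 there was 0.92 above it.

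Differences from the start depend on the scale more than differences between feeds do. The 27 hybridization spike-in probe sets averaged 11.69 on the arrays of the start, against 10.44 to 10.75 in the fed groups. Scaling each array to these spike-ins shifted the median of all genes against the start by 1.23 and 0.94 in the hydrolysate feed at 9 h and 18 h and by 1.25 and 1.16 in the sugar feed. The shift is the same for every gene of a comparison, so it also moves the place of the start in the orders given above. On that scale, CUP2 in the hydrolysate feed at 9 h differed from the start by 0.12 instead of -1.10, and MAC1 in the sugar feed at 18 h by 0.055 instead of -1.11. CTR1 in the hydrolysate feed differed from the start by -0.09 at 9 h, within its SE of 0.32, and by -1.27 at 18 h. CTR3 differed from it by -0.52 and -0.14 in the hydrolysate feed and by 1.33 and 1.73 in the sugar feed. FRE1 in the hydrolysate feed stood 1.23 and 1.29 above the start. CUP1-1 turned to 0.65 in the hydrolysate feed at 9 h and to 0.24 in the sugar feed at 18 h. CRS5 in the hydrolysate feed at 18 h turned to 0.75 and CUP2 in the sugar feed at 18 h to 0.94. The shift of the median feed difference was -0.02 at 9 h and -0.23 at 18 h.

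The following counts against the start are on the RMA scale. In the hydrolysate feed at 9 h, 0 members were at least 2-fold above the start without overlap, against 20.1% of all genes. There 5 (CTR1, CTR3, FRE7, CUP2 and CRS5) were below it, against 13.5%. At 18 h, 1 (CCC2) was above, against 15.8%, and 3 (CTR1, CTR3 and FRE7) were below, against 10.4%. In the sugar feed at 9 h, 2 (CTR1 and FRE1) were above, against 20.9%, and 4 (FRE7, CUP2, CUP1-1 and CRS5) were below, against 17%. At 18 h, 3 (CTR1, FRE1 and CCC2) were above, against 19.4%, and 1 (MAC1) was below, against 16.4%. Spike-in scaling raised the members that lay below the start on the RMA scale. In the hydrolysate feed at 9 h they then differed from it by -0.09 (CTR1), -0.52 (CTR3), -0.83 (FRE7), 0.12 (CUP2) and -0.70 (CRS5). At 18 h CTR1 (-1.27) stayed at least 2-fold below, while CTR3 was -0.14 and FRE7 -0.997. In the sugar feed at 9 h CUP1-1 (-1.39) stayed so, while FRE7 was -0.18, CUP2 -0.12 and CRS5 -0.93. At 18 h MAC1 was 0.055. On that scale 4 members were at least 2-fold above the start without overlap in the hydrolysate feed at 9 h. They were CTR2 (1.43), FRE1 (1.23), MAC1 (1.12) and CCC2 (2.17). In the sugar feed at 18 h 6 were: CTR1 (3.54), CTR3 (1.73), CTR2 (1.86), FRE1 (2.76), CRS5 (1.31) and CCC2 (2.96). No share of all genes past this rule is given for that scale. The limma fit called 62.7% and 55.4% of all genes different from the start in the hydrolysate feed at 9 h and 18 h, and 66.2% and 66.5% in the sugar feed, at an adjusted p under 0.05. Of the called genes, the share that was higher than the start moved from 53.6%, 59.9%, 51.3% and 55.3% in these 4 comparisons to 95.4%, 95%, 94.4% and 92.2% under spike-in scaling.

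**Figure D4:**
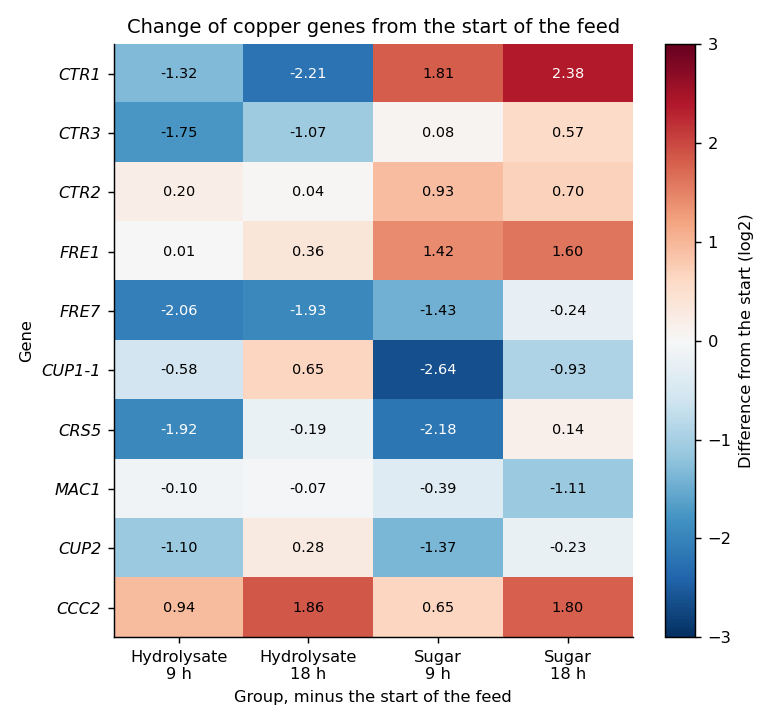
Log2 difference of each of the 10 genes (rows) from the start of the feed, for the hydrolysate and the sugar feed at 9 h and 18 h (columns), with the value printed in each cell. The scale runs from blue (lower than the start) to red (higher). CTR1 is lower in the hydrolysate columns (-1.32 and -2.21) and higher in the sugar columns (1.81 and 2.38).

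Over the 10 arrays, which share the 5 groups, the closest pair of members was CUP2 and CRS5 (Pearson's r 0.91), followed by CTR1 and CTR3 (0.86), CTR1 and FRE1 (0.84) and CUP2 and CUP1-1 (0.82). CTR2 ran opposite to CUP1-1 (-0.81), MAC1 ran opposite to FRE1 (-0.77) and CTR1 (-0.72), and CTR1 ran opposite to CUP1-1 (-0.71). Many genes in these data were closer to CTR1 or CUP1-1 than other members were. Among 4089 genes with a brightest group mean above background and a range of group means of at least 1, the 5 most like CTR1 were CDC50 (0.96), YLL032C (0.94), GTT3 (0.94), YKE4 (0.93) and DAM1 (0.93). CTR3 held place 36 and FRE1 place 59. The 5 most like CUP1-1 were FIS1, OCA4, ECM13, SEC17 and UMP1, with r between 0.96 and 0.97, and CUP2 held place 165. These correlations are descriptions.

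The rest of the copper pathway was followed in a list of 31 further genes, chosen by role with earlier results of these data known, and compared by limma with p-values adjusted over all genes by Benjamini and Hochberg's method. At 9 h, 3 of the 31 were higher in the hydrolysate feed and 3 were lower at an adjusted p under 0.05, where 5.77% of all genes were called higher and 3.91% lower. The other 25 were not called and lay between -0.88 and 1.13. At 18 h, 11 were higher and 6 lower, where 31.2% and 30.8% of all genes were called, and the other 14 lay between -0.68 and 0.80. The median of the list was 0.28 at 9 h and 0.09 at 18 h. Under spike-in scaling, the share of higher calls among all genes called at 18 h moved from 50.3% to 37.6%.

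The multicopper oxidase gene FET3 and the iron permease gene FTR1, whose products form the high-affinity iron uptake complex that needs copper from Ccc2, stood highest in the list at 18 h. The log2 level of FET3 was 8.67 and 8.28 at the start, 10.98 and 10.94 in the hydrolysate feed at 9 h and 10.87 and 11.69 at 18 h. On sugar it read 9.52 and 9.48 at 9 h and 7.88 and 7.24 at 18 h. FET3 was higher in the hydrolysate feed by 1.46 at 9 h (SE 0.29, limma adjusted p = 0.0256) and by 3.72 at 18 h (13.2-fold, adjusted p = 6.88e-05). FTR1 was higher by 0.71 at 9 h (SE 0.19, limma adjusted p = 0.0482) and by 2.62 at 18 h (6.16-fold, adjusted p = 4.53e-05). The transcripts of the iron oxidase complex and that of CCC2, which supplies it, thus differed in their pattern: at 18 h CCC2 stood at 11.03 to 11.52 in both feeds. The iron regulator genes AFT1 and AFT2 were called at neither time.

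The chaperone genes ATX1 (1.38, limma adjusted p = 0.000133), CCS1 (1.53, 0.000496) and CMC1 (1.57, 0.00229) were higher in the hydrolysate feed at 18 h. Atx1 serves Ccc2, Ccs1 loads copper into superoxide dismutase, and Cmc1 acts in the assembly of cytochrome c oxidase. The level of ATX1 was 13.18 and 13.08 in the hydrolysate feed at 18 h against 11.73 and 11.76 in the sugar feed. PIC2, a mitochondrial carrier of phosphate and copper, was higher at 9 h (1.01, limma adjusted p = 0.0161) and at 18 h (0.69, 0.006). SCO1, needed for the copper site of cytochrome c oxidase, was lower at 18 h (-0.97, 0.000645). Of the 10 chaperone and delivery genes, 4 were called higher and 1 lower at 18 h, where 31.2% and 30.8% of all genes were.

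Both further genes that Mac1 is known to activate, REE1 and IRC7, were called higher in the hydrolysate feed at 18 h, as were 31.2% of all genes. REE1 was higher by 1.24 (SE 0.16, limma adjusted p = 0.000351) and IRC7 by 1.67 (SE 0.35, adjusted p = 0.00324). At 18 h REE1 read 7.60 and 7.48 in the hydrolysate feed and 6.28 and 6.33 in the sugar feed. IRC7 read 7.44 and 6.52 in the hydrolysate feed and 5.49 and 5.13 in the sugar feed. The latter values lie near the background of those arrays (4.80 and 4.78). The direction of REE1 and IRC7 was opposite to that of CTR1, CTR3, FRE1 and FRE7. Of the other metal reductase genes, FRE4 (-2.21), FRE8 (-1.67) and FRE2 (-1.36) were lower at 18 h, with limma adjusted p between 0.00016 and 0.000352. FRE5 was called higher but stayed below background on all 10 arrays, so no level or fold is given for it.

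FET4, a low-affinity transporter that carries iron and copper among other metals, was the lowest of the list at 9 h. Its log2 level was 7.64 and 6.58 in the hydrolysate feed at 9 h against 10.01 and 9.63 in the sugar feed, and 7.28 and 7.50 against 8.98 and 8.79 at 18 h. The feed difference was -2.71 at 9 h (SE 0.31, 6.55-fold, limma adjusted p = 0.00351) and 2.83-fold at 18 h in the same direction (adjusted p = 0.00294). The metal-exporting pump gene PCA1 was also lower at 9 h (-0.82, limma adjusted p = 0.0454) and at 18 h (-1.96, adjusted p = 0.000159). CUP9, a repressor gene first found through copper tolerance, was lower at 9 h (-0.80, limma adjusted p = 0.0385). SLF1, whose product takes part in copper tolerance (1.36, 0.0046), and BSD2, whose product sends metal transporters to the vacuole (0.93, 0.00194), were higher at 18 h.

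The calls at 9 h rested on few arrays. Only FET4 kept its call when any array was left out, with a difference of -3.24 to -2.18. In a fit of the 9 h arrays alone the call of FET4 was lost, at a limma adjusted p of 0.0988. Of the further genes called at 9 h, only FET3 kept its call in that fit, at 0.0358. FET3 and PIC2 lost theirs without replicate 1 of the hydrolysate feed at 9 h or either replicate of the sugar feed at 9 h, with adjusted p up to 0.134 and 0.108. FTR1, PCA1 and CUP9 lost theirs without replicate 1 of the hydrolysate feed at 9 h or any array of the other 3 fed groups, with adjusted p up to 0.217, 0.226 and 0.16. At 18 h, PIC2 lost its call without replicate 2 of the sugar feed (0.0537) and under spike-in scaling (0.106). The other genes named at 18 h apart from FRE5 kept theirs without each array. The trend over gene length was not taken off for the further genes. At 18 h ATX1 (222 bp), CMC1 (336 bp), REE1 (597 bp) and CCS1 (750 bp), called higher, lie in the shortest class. FRE8 (2061 bp), FRE2 (2136 bp), FRE4 (2160 bp) and PCA1 (3651 bp), called lower, lie in the longest. FET3 (1911 bp) and FRE5 (2085 bp) also lie there but were called higher, and the other called genes lie in the middle classes.

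**Figure D5:**
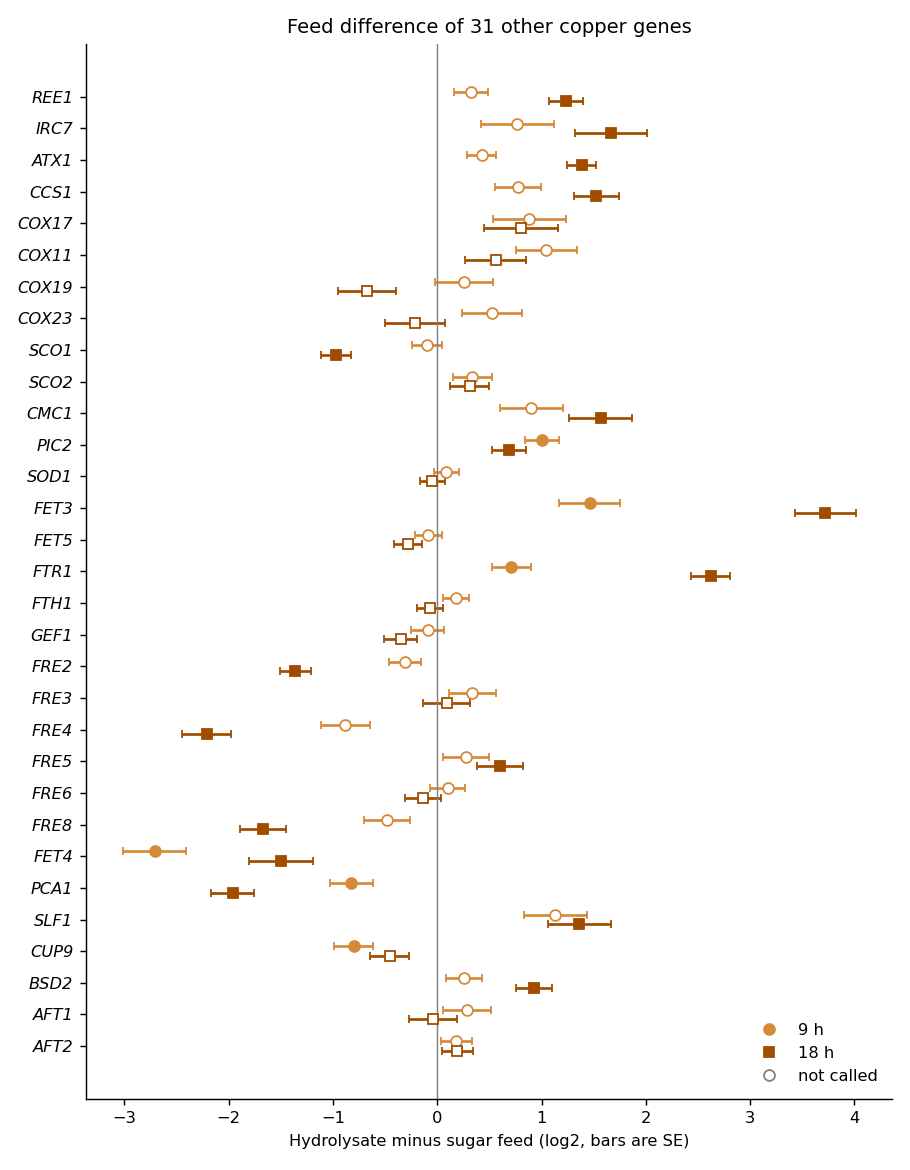
Log2 difference between the hydrolysate and the sugar feed (horizontal axis) for 31 other copper genes at 9 h (circles) and 18 h (squares), with bars of 1 SE. Filled symbols were called by limma at an adjusted p under 0.05 and open symbols were not. FET3 (3.72) and FTR1 (2.62) lie farthest right at 18 h, and FET4 (-2.71) farthest left at 9 h.

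The feed difference at 18 h was also set against that at 9 h in the same fit, where 14.3% of all genes were called higher and 13.1% lower. Of the 31 genes, 4 were called higher: FET3 (2.26, limma adjusted p = 0.00802), FTR1 (1.91, 0.0029), ATX1 (0.96, 0.011) and REE1 (0.91, 0.0216). A further 5 were lower: FRE4, FRE8, PCA1, FRE2 and SCO1, with changes of -1.33 to -0.87 and limma adjusted p between 0.0106 and 0.0246. FET3, FTR1, ATX1 and FRE2 kept their calls when any array was left out. REE1, SCO1, FRE4, FRE8 and PCA1 lost theirs without replicate 1 of the hydrolysate feed at 18 h or replicate 1 of the sugar feed at 18 h, among others, with adjusted p up to 0.0919. Under spike-in scaling, REE1 (0.22) and ATX1 (0.153) were not called, and the share of higher calls among all genes called moved from 52.3% to 35.3%. The median change was 0.28 in the shortest length class of genes and -0.33 in the longest, and the trend over gene length was not taken off here.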

How the data were processed

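Total RNA of 10 samples was measured on 10 arrays, 2 biological replicates in each of 5 groups taken from the labels. The deposited values are log2 intensities after RMA, made by the authors. The submitters' processing notes name limma 3.52.4, affy 1.74.0 and R 4.2.1, with neither order nor role. The sources used here do not name the array model, nor say whether the samples of 1 feed at 9 h and 18 h come from the same culture. The authors' deposited table supplied gene names, coordinates and log2 differences between feeds, and the latter differed from those computed here by at most 9.3e-14. That table calls the later time 17 h where the labels say 18 h. Its 10 columns of single arrays and 3 emptied lines were not used. All 10 genes had the same start and end in RefSeq's R64 annotation. No sequence is shown.

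Of 5811 S. cerevisiae probe sets, 5703 carried a gene name. The probe set with the highest mean was taken for 47 genes with several, which left 5654 genes. All 10 arrays entered a single fit (R 4.3.3, limma 3.58.1, lmFit and eBayes, with 5 residual and 3.49 prior degrees of freedom). Genes were called at a Benjamini-Hochberg adjusted p under 0.05, over all genes. The members and the list of 31 further genes were chosen with earlier results of these data known. The members got no test, and were counted where the arrays of both groups did not overlap and the means were at least 2-fold apart. All 10 members are named, as are the further genes called in a feed comparison or in the difference between times, and the 5 genes most like CTR1 and CUP1-1. The number of arrays limits the precision. A p-value sets a difference against the spread between replicate arrays, estimated over all 5 groups, although replicates differed more in some groups than in others.

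The alternatives left out each array in turn, fitted only the arrays compared, took the replicate number as a block, tested only genes above background on at least 2 arrays, and used a robust, trended prior. Others centred the medians, normalized by quantiles again, averaged the probe sets of a gene or took the authors' differences. Spike-in scaling and removal of the trend over gene length, the latter for the members only, were added after seeing the data. On simulated data for 5654 genes, of which 50 had each size of change, the comparison at 9 h called 16%, 86%, 98% and 100% of log2 changes of 0.5, 1, 2 and 3. At 18 h these were 10%, 64%, 92% and 100%, and for the difference between times 0%, 38%, 80% and 98%. The percentage of false calls was 4.46%, 2.21% and 5.26% in these comparisons. In the data 9.67%, 61.9% and 27.4% of genes were called, unlike the share changed in the simulation. The simulated percentages therefore do not give the share of true changes found in these data.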

Additional observations from a re-analysis of the deposited data

Results flagged for a closer look

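For 9 of the 31 further copper genes the feed difference at 18 h differed from that at 9 h by limma's test of the difference itself, at an adjusted p under 0.05, as it did for 27.4% of all genes. The change was 2.26 for FET3, 1.91 for FTR1, 0.96 for ATX1 and 0.91 for REE1, all toward the hydrolysate feed. It was -1.33 for FRE4, -1.19 for FRE8, -1.14 for PCA1, -1.05 for FRE2 and -0.87 for SCO1. As given above, REE1, SCO1, FRE4, FRE8 and PCA1 lost their calls when some single arrays were left out. Under spike-in scaling REE1 and ATX1 were not called. No explanation was tested.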

How the results depend on the processing

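The count of genes that differed between feeds at 9 h was the least stable: 547 in the reported fit, 23 with only the arrays compared, 337 with the replicate block, 232 under spike-in scaling, and 30 to 1550 when an array was left out. The 6 further copper genes called at 9 h became 1 with only the arrays compared, 3 under spike-in scaling and 1 to 13 when an array was left out, the highest without replicate 2 of the hydrolysate feed at 9 h. For the difference between times, the 1548 genes became 917 under spike-in scaling and 654 to 1889 when an array was left out, and the 9 further copper genes became 4 to 12. At 18 h, the 3502 genes became 2654 to 3675 and the 17 further copper genes 15 to 20 when an array was left out, and 4014 and 22 with only the arrays compared. Members at least 2-fold apart without overlap numbered 4 at 9 h and 5 or 6 at 18 h under the other normalizations, spike-in scaling, the mean of probe sets and each array left out. They were not counted with the trend over gene length taken off, where CTR2 reached -1.07 at 18 h. Against the start, spike-in scaling turned CUP2 in the hydrolysate feed at 9 h from -1.10 to 0.12 and MAC1 in the sugar feed at 18 h from -1.11 to 0.055. The cause was not tested. Among alternative values of the members' differences, 902 moved by less than 1 residual SD and 166 by more. Deviations of same-numbered arrays correlated between -0.20 and 0.13 across groups. With 2 arrays per group this cannot show whether samples share a culture, which the sources used here do not say. The reported fit treated all arrays as independent. With the replicate number as a block, FTR1 was not called at 9 h (limma adjusted p = 0.0676), and 3399 and 1329 genes were called at 18 h and for the difference between times.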
